A study of Mus musculus with 18 samples.

Results

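Transcripts of 10 genes of the AP-1 family were followed over 18 Affymetrix Mouse Gene ST arrays from hindpaw epidermis and dorsal root ganglia (DRG). The genes are Fos, Fosb, Fosl1, Fosl2, Jun, Junb, Jund, Atf3, Batf3 and Maff. They were taken by name, each from the 1 probe set that stands for it alone, and are 10 of the 19938 genes that have such a probe set. Each group held 3 arrays. Epidermis of both genotypes was taken from naive mice and from mice injected with CFA, and DRG of both genotypes from naive mice only. Mutant mice were K14Cre-Trpa1 fl/fl and control mice, labelled wild type, were K14Cre-Trpa1 +/+, so that both carried Cre recombinase under control of the keratin 14 promoter, a promoter used by keratinocytes. In the mutants loxP sites flank exons 22 to 24 of the ion channel gene Trpa1, and per the study's methods the excised allele was found in epidermis and not in DRG. The mice were adult males of at least 7 weeks on a mixed C57BL/6, CBA and Swiss Webster background. Per those methods, control and mutant lines were bred apart over many generations and mutants came from their own colony unless noted, so genotype and colony cannot be told apart. CFA is complete Freund's adjuvant, an oil emulsion of killed mycobacteria that inflames the paw, and 50 µl of it had been injected 2 days before the epidermis was taken. The reference for CFA was untouched naive epidermis, because vehicle injection was not profiled. Glabrous hindpaw skin lay in dispase before the epidermis was peeled off, for 1 hour per the labels and for 50 minutes per the study's methods, and the ganglia came from lumbar levels 1 to 6. The sources used here do not say which ganglia and epidermis shared a mouse.

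AP-1 is not 1 protein but a family of dimers. A FOS or ATF protein joins a JUN protein through a leucine zipper, and the pair binds short DNA elements with its basic region. FOS proteins cannot form stable pairs with each other, whereas JUN proteins can. Many of these genes are immediate-early genes: MAP kinases act on factors already bound at their promoters, transcription starts within minutes, and the messages are short-lived. In epidermis AP-1 is known for its part in keratinocyte proliferation, differentiation, stress and wound responses, and in sensory neurons JUN and ATF3 are known as markers of axon injury.

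Promoter windows, 250 bases before to 50 bases after the annotated start, were read from RefSeq (build GRCm38.p6) for 9 of the 10 genes. Fosl1 had no entry. Shown are the windows of the 4 genes with the largest falls after CFA, Fos, Fosb, Jun and Atf3, and the 2 of the 3 Maff windows that hold a match, each 5′ to 3′ on the strand of the gene. Capitals mark matches on either strand to the AP-1 element TGANTCA, to the cyclic AMP response element TGACGTCA, to TGACATCA, to the half-site TGACG (which also lies within TGACGTCA), or to the CArG box bound by serum response factor. The half-site was added after the sequences had been read.
Fos (chr12:85473640-85473939, plus strand): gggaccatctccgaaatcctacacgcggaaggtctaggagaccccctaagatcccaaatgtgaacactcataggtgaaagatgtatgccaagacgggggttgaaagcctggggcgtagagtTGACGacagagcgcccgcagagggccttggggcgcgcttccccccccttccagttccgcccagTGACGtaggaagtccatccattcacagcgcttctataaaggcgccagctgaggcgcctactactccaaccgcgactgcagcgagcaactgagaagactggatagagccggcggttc
Fosb (chr7:19309996-19310295, minus strand): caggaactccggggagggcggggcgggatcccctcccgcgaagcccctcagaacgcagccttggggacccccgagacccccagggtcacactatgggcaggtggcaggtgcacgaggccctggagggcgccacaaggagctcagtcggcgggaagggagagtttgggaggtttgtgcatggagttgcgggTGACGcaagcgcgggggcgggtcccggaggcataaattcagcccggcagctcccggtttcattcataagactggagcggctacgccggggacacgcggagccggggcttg
Jun (chr4:95052173-95052472, minus strand): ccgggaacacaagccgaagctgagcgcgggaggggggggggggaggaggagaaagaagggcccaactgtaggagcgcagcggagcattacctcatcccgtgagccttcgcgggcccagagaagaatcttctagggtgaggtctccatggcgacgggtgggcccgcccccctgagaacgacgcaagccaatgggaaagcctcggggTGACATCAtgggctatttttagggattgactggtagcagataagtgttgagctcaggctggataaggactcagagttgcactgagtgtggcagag
Atf3 (chr1:191183284-191183583, minus strand): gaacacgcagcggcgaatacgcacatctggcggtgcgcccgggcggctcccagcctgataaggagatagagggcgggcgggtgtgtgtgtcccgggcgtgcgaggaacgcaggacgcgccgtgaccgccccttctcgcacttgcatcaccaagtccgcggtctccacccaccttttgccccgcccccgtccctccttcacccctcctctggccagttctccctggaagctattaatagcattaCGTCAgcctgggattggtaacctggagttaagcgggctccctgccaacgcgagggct
Maff (chr15:79347270-79347569, plus strand): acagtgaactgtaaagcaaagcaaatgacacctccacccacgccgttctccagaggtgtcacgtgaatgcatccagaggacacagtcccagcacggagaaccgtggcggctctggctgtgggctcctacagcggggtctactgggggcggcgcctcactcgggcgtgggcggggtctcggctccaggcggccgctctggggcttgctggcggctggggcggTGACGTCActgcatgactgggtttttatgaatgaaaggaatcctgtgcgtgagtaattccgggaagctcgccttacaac
Maff (chr15:79348152-79348451, plus strand): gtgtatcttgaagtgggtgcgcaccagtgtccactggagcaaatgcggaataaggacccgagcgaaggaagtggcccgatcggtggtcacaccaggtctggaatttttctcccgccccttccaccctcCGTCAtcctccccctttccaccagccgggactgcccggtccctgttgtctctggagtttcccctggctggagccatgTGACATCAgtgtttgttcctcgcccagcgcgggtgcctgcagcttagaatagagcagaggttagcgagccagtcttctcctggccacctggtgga

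TGANTCA and the CArG box were in none of the 9 genes' windows. They are in 7.81% and 1.63% of all 32851 windows. TGACATCA, which 3.62% of all windows hold, spanned bases -45 to -38 from the start of Jun and the same bases in the third Maff window. TGACGTCA, held by 1.79% of all windows, was found in the second Maff window from -29 to -22. The half-site was in the windows of 5 of the 9 genes, Fos, Fosb, Junb, Atf3 and Maff, against 23.0% of the 27025 genes with a window. Because it was added after these sequences had been read, and Maff had several windows to match in, this share is a description only. The members' windows held from 46.7% (Jund) to 75.7% (Batf3) G and C, against a median of 52.7% over all windows. The part of base composition was not tested. In Fos it started at -129 and at -66, in Fosb at -60, and in Atf3 it spanned -7 to -3 on the opposite strand. These are matches of letters in short windows, and no binding was measured in these data.

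Signals are the log2 values that the authors deposited after RMA, which summarises the short probes of a set and brings arrays to a common distribution. The 6 DRG arrays had medians of 6.51 to 6.58 and the 12 epidermal arrays medians of 5.37 to 5.48, so levels were tested only within a tissue. Background was set for each array from 1218 olfactory-type receptor probe sets, as their 95th percentile, and was 4.58 to 4.79 in epidermis and 5.77 to 5.92 in DRG. Replicate arrays correlated at 0.992 or more over all probe sets. Trpa1 was below background on all 12 epidermal arrays and read 8.99 ± 0.10 (SD, n = 3) in control and 8.61 ± 0.21 (SD, n = 3) in mutant DRG, so the arrays hold no check of the deletion in epidermis. Keratinocyte markers were above background on every epidermal array, and sensory neuron markers averaged 11.4 to 11.7 in DRG. A gene was called changed at a Benjamini-Hochberg adjusted p under 0.05 in limma, over all 23410 probe sets with a gene. The 3 arrays of a group are the paper's biological replicates. In tissue of mixed cells, fewer cells of a type and less RNA per cell cannot be told apart.

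**Figure D1:**
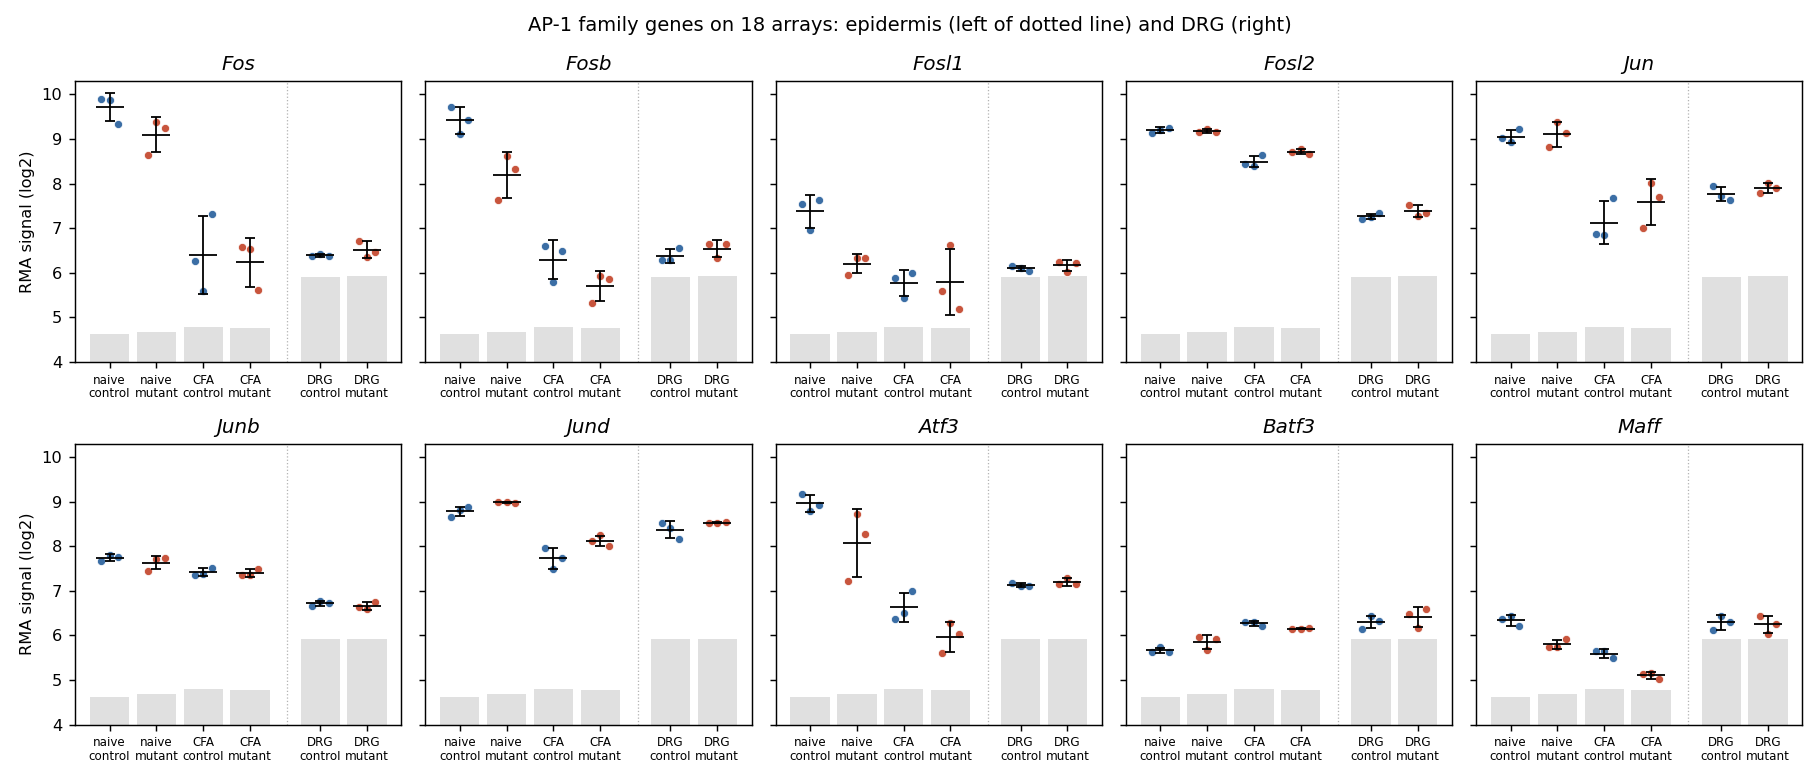
RMA signal (log2, y axis) of each of the 10 genes on every array, by group (x axis), with control arrays in blue and mutant arrays in red. Points are arrays, the horizontal mark and bars give the mean ± SD of 3 arrays, and grey reaches to the highest background level in the group. Fos, Fosb and Atf3 lie above 7.2 on every naive epidermal array, whereas in DRG, right of the dotted line, Fosl1, Batf3 and Maff lie just above the grey.

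In epidermis nearly the whole family was lower after CFA. In control mice all 10 genes were called, 9 lower and Batf3 higher, against 26.3% of all probe sets called in either direction and 14.8% called lower. In mutant mice 8 were called, 7 lower and Batf3 higher, against 26.0% in either direction and 13.1% lower. The median log2 fold change of the 10 genes was -1.33 in controls and -0.78 in mutants, with medians over all probe sets of 0.03 and 0.04. The largest falls in both genotypes were those of Fos, Fosb and Atf3. All epidermis lay in dispase before RNA was taken, and the part of that step in these levels was not tested. The study's methods do not say whether naive and CFA skin were handled together.

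Fos encodes the founding FOS subunit and is the standard marker of recent cell stimulation. Naive control epidermis read 9.91, 9.89 and 9.34 and naive mutant epidermis 8.65, 9.38 and 9.25. After CFA the control arrays read 6.27, 5.58 and 7.32 and the mutant arrays 6.58, 6.53 and 5.60. Every CFA array was lower than every naive array, and the CFA control arrays were spread most widely. Fos fell 9.98-fold in controls (log2 fold change -3.32 ± 0.37 SE, adjusted p = 0.0001886) and 7.23-fold in mutants (-2.85 ± 0.28, adjusted p = 0.000187).

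Fosb encodes a close relative of FOS that is induced with it. Its signals were 9.72, 9.11 and 9.43 in naive controls and 7.62, 8.63 and 8.33 in naive mutants. They were 6.59, 5.79 and 6.50 in CFA controls and 5.32, 5.92 and 5.86 in CFA mutants. The 4 groups stepped down in that order, and the first 3 did not overlap with each other. The fall with CFA was 8.74-fold in controls (-3.13 ± 0.22, adjusted p = 1.134e-05) and 5.62-fold in mutants (-2.49 ± 0.25, adjusted p = 0.0002397).

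Fosl1 encodes FRA1, a FOS-related protein without the strong activation domain of FOS that is prominent in keratinocyte migration. Naive control epidermis read 7.54, 6.95 and 7.63, whereas naive mutant epidermis read 5.95, 6.32 and 6.34. CFA controls read 5.89, 5.43 and 5.99, and CFA mutants 5.58, 6.61 and 5.18. Naive controls stood above all other epidermal arrays, and the remaining 3 groups lay close together. Fosl1 fell 3.04-fold in controls (-1.61 ± 0.20, adjusted p = 0.000388). In mutants its difference was -0.41 ± 0.31 (adjusted p = 0.3728), with a 95% interval from -1.12 to 0.30. That result rests on CFA mutant replicate 2, the highest of its group, without which Fosl1 was called lower in mutants too (-0.82, adjusted p = 0.01473).

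Fosl2 encodes FRA2, the FOS-related subunit of differentiating keratinocytes, and its replicates were tight. The signals were 9.13, 9.21 and 9.26 in naive controls and 9.16, 9.23 and 9.16 in naive mutants. After CFA they were 8.45, 8.40 and 8.63 in controls and 8.71, 8.77 and 8.66 in mutants. The naive groups were interleaved, and both CFA groups lay below them. The falls were 1.63-fold in controls (adjusted p = 0.0005969) and 1.39-fold in mutants (adjusted p = 0.002021), both under the study's threshold of 2-fold.

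Among the JUN subunits, Jun, the main partner of FOS and a target of JNK kinases, moved most. It read 9.02, 8.93 and 9.22 in naive controls and 8.82, 9.38 and 9.13 in naive mutants. It read 6.86, 6.84 and 7.67 in CFA controls and 7.01, 8.02 and 7.71 in CFA mutants. No CFA array reached the naive range, while the genotypes overlapped in either condition. Jun fell 3.81-fold in controls (-1.93 ± 0.21, adjusted p = 0.0001519) and 2.89-fold in mutants (-1.53 ± 0.24, adjusted p = 0.002468). The mutant call was lost when each probe set was fitted on its own variance, without limma's moderation (adjusted p = 0.05794).

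Jund, whose product is present in resting cells and often restrains growth, read 8.66, 8.81 and 8.87 in naive controls and 8.99, 8.99 and 8.96 in naive mutants. After CFA it read 7.95, 7.48 and 7.74 in controls and 8.11, 8.24 and 8.01 in mutants. Within each condition all mutant arrays were above all control arrays. It fell 2.08-fold in controls (-1.06 ± 0.13, adjusted p = 0.0003205) and 1.82-fold in mutants (-0.86 ± 0.08, adjusted p = 0.0001667).

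Junb, which can oppose JUN and is known for holding back inflammation in keratinocytes, moved least. Its signals were 7.66, 7.81 and 7.75 in naive controls, 7.46, 7.71 and 7.74 in naive mutants, 7.35, 7.38 and 7.52 in CFA controls and 7.35, 7.36 and 7.49 in CFA mutants. The naive mutant and both CFA groups overlapped. Its fall of 1.25-fold in controls was called (-0.33 ± 0.09, adjusted p = 0.02749) but kept the call under only 6 of 14 alternative settings, and was -0.21 (adjusted p = 0.1091) after a further quantile normalization. It lost the call without naive control replicate 2 or 3 (adjusted p = 0.1022 and 0.07894) and without CFA control replicate 1 or 2 (adjusted p = 0.06366 and 0.0778). In mutants its difference was -0.23 ± 0.10 (adjusted p = 0.1094), and it was called only without naive mutant replicate 1 (-0.32, adjusted p = 0.04619).

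Atf3 encodes a stress-induced factor that pairs with JUN proteins and often represses its targets. Naive controls read 9.16, 8.80 and 8.92, and naive mutants 7.23, 8.72 and 8.28. CFA controls read 6.38, 6.50 and 7.01, and CFA mutants 5.61, 6.28 and 6.02. The 4 groups followed each other in that order without overlap, although naive mutant replicate 1 lay more than 1 log2 unit below its fellows. Atf3 fell 5.05-fold in controls (-2.34 ± 0.17, adjusted p = 1.262e-05) and 4.31-fold in mutants (-2.11 ± 0.34, adjusted p = 0.00263), and without the moderation the mutant call was lost (adjusted p = 0.06218).

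Batf3 encodes a small FOS-like factor without an activation domain that is needed for cross-presenting dendritic cells. It read 5.62, 5.74 and 5.64 in naive controls and 5.96, 5.67 and 5.93 in naive mutants. After CFA it read 6.30, 6.29 and 6.21 in controls and 6.14, 6.14 and 6.17 in mutants. All CFA arrays were above all naive arrays, with CFA controls highest. The rise was 1.52-fold in controls (0.60 ± 0.08, adjusted p = 0.0007646) and 1.23-fold in mutants (0.30 ± 0.09, adjusted p = 0.04437). The mutant call held under 3 of 14 alternative settings and was lost when any 1 of the 6 arrays was left out (adjusted p = 0.05305 to 0.1213), so it rests on having all of them. Markers of Langerhans and dendritic cells, 5 of 5 above background, averaged 7.32 to 7.40 per array in naive controls and 7.70 to 7.77 in CFA controls, and 7.37 to 7.38 in naive mutants and 7.28 to 7.45 in CFA mutants. Their part in the rise of Batf3 was not tested. On chromosome 1 Batf3 and Atf3 are neighbours, 61.4 kb apart with 4 annotated genes between them (Fam71a and 3 predicted genes), and their signals moved in opposite directions.

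Maff encodes a small MAF protein, a leucine zipper factor that lacks an activation domain and pairs with FOS and with NRF proteins. It read 6.37, 6.44 and 6.21 in naive controls, 5.75, 5.74 and 5.91 in naive mutants, 5.65, 5.65 and 5.48 in CFA controls and 5.14, 5.16 and 5.01 in CFA mutants. The 4 groups stepped down in this order without overlap, and CFA mutants lay 0.36 above background on average. Maff fell 1.67-fold in controls (-0.74 ± 0.10, adjusted p = 0.0005435) and 1.62-fold in mutants (-0.70 ± 0.08, adjusted p = 0.0006063).

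**Figure D2:**
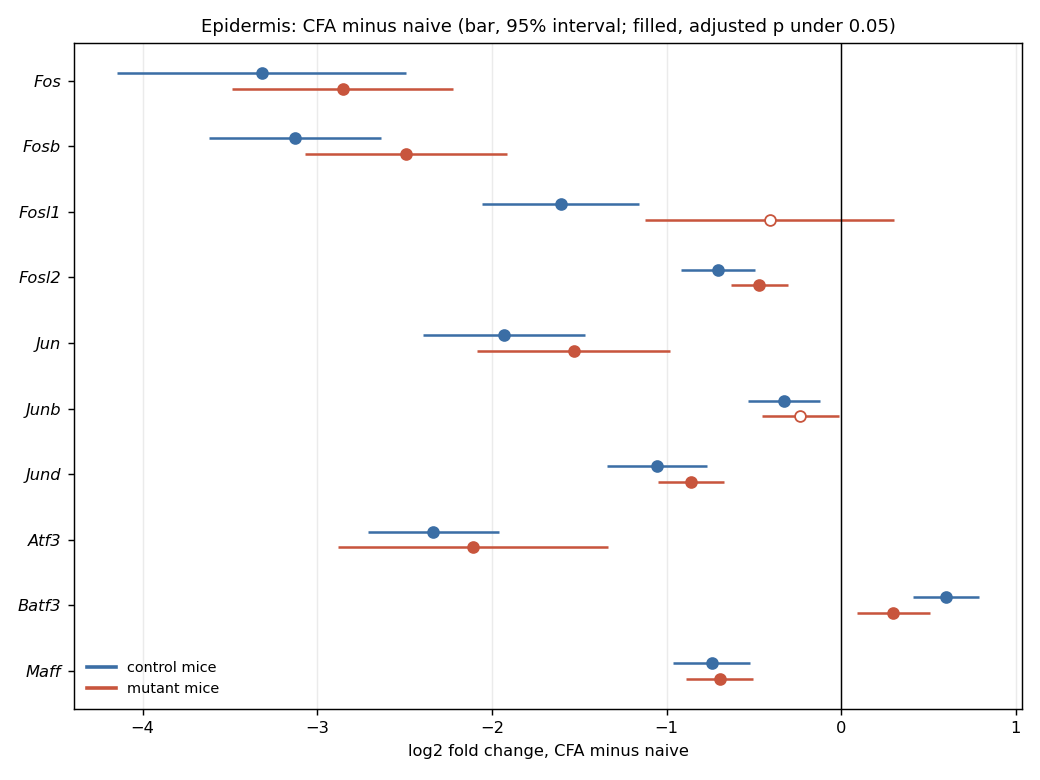
Log2 fold change of each gene from naive to CFA epidermis (x axis) in control mice (blue) and mutant mice (red), with bars for the 95% interval and filled points at an adjusted p under 0.05. Points left of the line at 0 are lower after CFA. Fos, Fosb, Jun and Atf3 lie beyond -1 in both genotypes, Batf3 is right of 0, and the interval of Fosl1 in mutants runs from -1.12 to 0.30.

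Other values moved with CFA beside these. Basal keratinocyte markers averaged 10.6 to 10.8 on naive and 11.1 to 11.3 on CFA arrays, with 5 of 5 above background. Differentiated keratinocyte markers, 8 of 8 measured above background, averaged 11.8 on the naive arrays and 10.9 to 11.2 on the CFA arrays. T cell markers averaged 5.12 to 5.28 and then 5.55 to 5.73, with Cd3d above background on 0 and Cd3g on 1 of the 12 arrays. Of 6 neutrophil markers, S100a8, S100a9 and Cxcr2 were above background on all epidermal arrays, the first and second of which keratinocytes make too, and Csf3r, Retnlg and Mmp8 were not above it in any epidermal group. The neutrophil list averaged 4.77 to 5.86 in naive and 5.23 to 6.68 in CFA controls, and 4.68 to 5.58 in naive and 5.34 to 6.38 in CFA mutants. Activated keratinocyte markers, 7 of 7 above background, averaged 7.89 to 9.52 on naive and 8.58 to 10.7 on CFA arrays, a wide spread with overlap. The part of these cell types in the falls was not tested.

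Between the genotypes in naive epidermis, no gene of the family passed the adjusted threshold, and Fosb and Fosl1 lay furthest apart. There 0 of the 10 genes were called by limma, and 0 without its moderation, against 0.0299% of all probe sets (7 of 23410). At an unadjusted p under 0.05 there were 5 lower (Fos, Fosb, Fosl1, Atf3 and Maff), against 4.78% of all probe sets, and 1 higher (Jund), against 4.16%. Mutant and control arrays did not overlap for 4 genes that were lower in mutants (Fosb, Fosl1, Atf3 and Maff), against 8.93% of all probe sets, and for 1 that was higher (Jund), against 7.66%. At the study's 2-fold threshold with an unadjusted p under 0.05, Fosb and Fosl1 were lower, against 0.0683% of all probe sets. The median of the 10 genes was -0.32, and that of all probe sets -0.0035.

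Fosb differed most, by -1.23 ± 0.25 on the log2 scale (2.34-fold, adjusted p = 0.3158, 95% interval -1.81 to -0.64). Fosl1 differed by -1.17 ± 0.19 (2.25-fold, adjusted p = 0.1947), and it was called when naive control replicate 2, the lowest of the controls, was left out (-1.38, adjusted p = 0.03825). Maff differed by -0.54 ± 0.09 (1.45-fold, adjusted p = 0.1948), and with limma's trend and robust options it was called (adjusted p = 0.03787). Atf3 differed by -0.88 ± 0.33 (adjusted p = 0.4989) and Fos by -0.62 ± 0.22 (adjusted p = 0.4917). Naive mutant replicate 1 was the lowest array of its group for Fos, Fosb, Fosl1, Jun, Junb and Atf3. Without it the difference was -0.46 for Atf3, -0.40 for Fos and -0.94 for Fosb. Jun and Fosl2 differed little, by 0.06 (95% interval -0.28 to 0.39) and -0.02 (-0.17 to 0.14).

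After CFA no gene of the family passed the threshold between genotypes either, and the differences of Fos and Fosl1 were near 0. Again 0 of the 10 genes were called by limma and 0 without its moderation, against 0.179% of all probe sets (42 of 23410), and at an unadjusted p under 0.05 there were 3 lower (Fosb, Atf3 and Maff), against 3.91% of all probe sets, and 1 higher (Jund), against 5.05%. Arrays of the genotypes did not overlap for 3 genes lower in mutants (Atf3, Batf3 and Maff), against 5.60% of all probe sets, and for 2 that were higher (Fosl2 and Jund), against 8.68%. The differences were -0.66 ± 0.20 for Atf3 (1.58-fold, adjusted p = 0.3304), -0.59 ± 0.22 for Fosb (adjusted p = 0.4532), -0.49 ± 0.10 for Maff (adjusted p = 0.1046) and 0.40 ± 0.13 for Jund (adjusted p = 0.3684). Maff was called when all 4 epidermal groups were fitted together (adjusted p = 0.02138). Fos differed by -0.16 with an interval from -1.05 to 0.74, and Fosl1 by 0.03 with an interval from -0.67 to 0.72.

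The differences of Maff, Atf3, Fosb and Jund pointed the same way in both conditions, each time at an unadjusted p under 0.05. Those of Fos, Jun and Junb also kept their direction, but without such a p in both. The genotype difference was therefore also averaged over naive and CFA epidermis in 1 fit of 12 arrays, a comparison chosen after seeing the data. Of the 10 genes 1 was called, against 0.372% of all probe sets. Maff was 1.43-fold lower in mutants (-0.51 ± 0.06, adjusted p = 0.003089). It kept this call whichever array was left out. Fosb averaged -0.91 ± 0.19 (adjusted p = 0.07209) and was called without CFA control replicate 2 (adjusted p = 0.03548) or without CFA mutant replicate 3 (adjusted p = 0.04968). Atf3 averaged -0.77 ± 0.21 (adjusted p = 0.1555) and Jund 0.30 ± 0.08 (adjusted p = 0.1317).

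**Figure D3:**
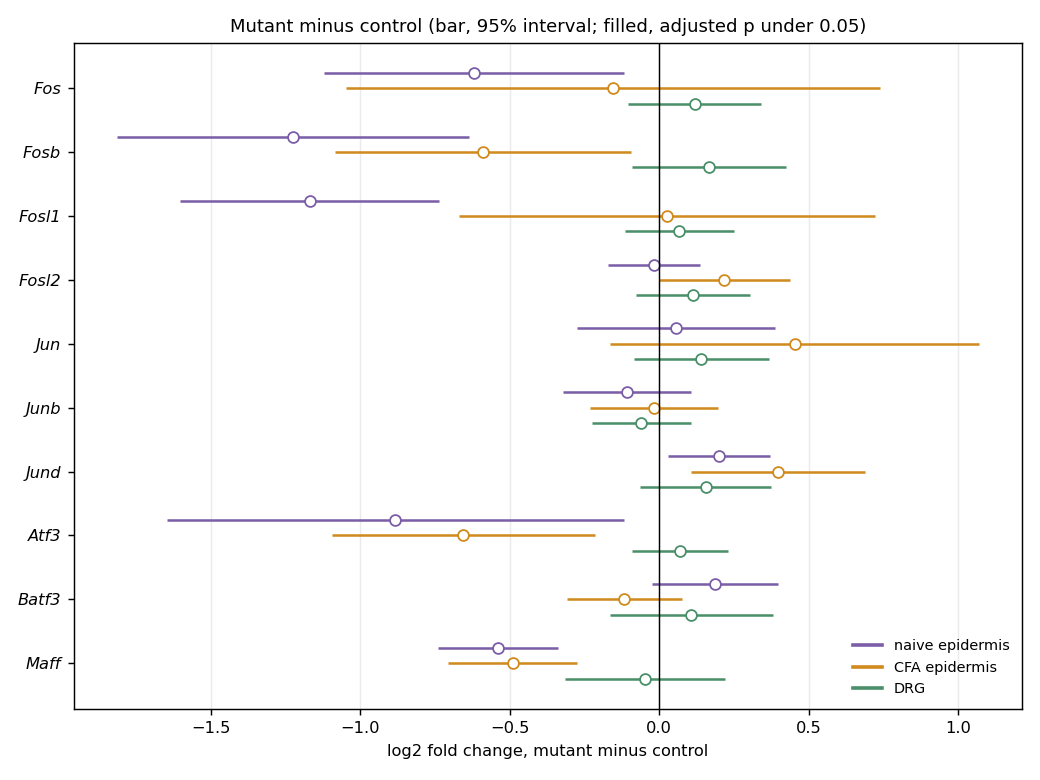
Log2 difference of mutant minus control (x axis) for each gene in naive epidermis (purple), CFA epidermis (orange) and DRG (green), with bars for the 95% interval. All points are open because none of these differences passed an adjusted p under 0.05. Maff, Atf3 and Fosb are left of 0 in both epidermal conditions, Jund is right of 0, and every DRG interval includes 0.

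Whether the response to CFA itself differed between the genotypes was tested as an interaction over the 12 epidermal arrays. None of the family was called by limma with or without its moderation (0 of 10, against 0.0256% of all probe sets). At an unadjusted p under 0.05 there were 2, Fosl1 and Batf3, against 8.26% of all probe sets. The fall of Fosl1 was smaller in mutants by 1.20 ± 0.42 on the log2 scale (adjusted p = 0.4673, 95% interval 0.29 to 2.10). Fosl1 stood on average 2.78 above background in naive controls and 1.58 in naive mutants. After CFA it stood 1.04 and 1.05 above it. The part of the lower naive level in the smaller fall was not tested. The rise of Batf3 was smaller in mutants by 0.30 (-0.30 ± 0.12, adjusted p = 0.5196). The difference was positive for 9 genes, all those that fell, and their naive mutant arrays enter both this contrast and the naive comparison. For Fos the interval ran from -0.68 to 1.61. For Junb, called in controls and not in mutants, the difference was 0.09 (95% interval -0.19 to 0.37).

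In DRG no gene of the family passed the threshold between genotypes, and all 10 differences were small. By limma 0 of the 10 genes were called, and 0 without its moderation, against 0.0726% of all probe sets (17 of 23410). At an unadjusted p under 0.05 there were 0, against 7.15% of all probe sets. For 0 genes did the genotypes separate without overlap, against 6.77% of all probe sets lower and 5.01% higher in mutants. The differences lay between -0.06 for Junb and 0.17 for Fosb. Jun, which rises in injured sensory neurons, read 7.94, 7.72 and 7.63 in controls and 7.78, 8.01 and 7.91 in mutants (0.14, 95% interval -0.09 to 0.37). Atf3, another gene induced in injured sensory neurons, read 7.17, 7.12 and 7.10 in controls and 7.14, 7.29 and 7.16 in mutants (0.07, 95% interval -0.09 to 0.23). The genotypes overlapped for both. Jund read 8.53, 8.42 and 8.17 in controls and 8.53, 8.51 and 8.54 in mutants, with the mutants tighter.

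Among the remaining genes, Fos, Fosb, Fosl1, Batf3 and Maff lay closest to background in DRG. Fos read 6.38, 6.43 and 6.37 in controls and 6.72, 6.35 and 6.47 in mutants, and Fosb 6.29, 6.28 and 6.56 and then 6.65, 6.32 and 6.65. Fosl1 lay between 6.03 and 6.25, Batf3 between 6.15 and 6.59 and Maff between 6.04 and 6.45 over the 6 arrays, while the highest background was 5.92. These 5 genes were on average 0.23 to 0.70 above background per group, which leaves little room to measure a fall. Fosl2 read 7.20 to 7.53 and Junb 6.59 to 6.77. Differentiated keratinocyte markers averaged up to 6.26 on 1 mutant and 5.84 on 1 control DRG array, and without both arrays 0 of the 10 genes were called as well.

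Because DRG and epidermis were on different distributions, each gene's place between the tissues was described by its percentile among the probe sets with 1 gene on the same array. Probe sets differ in how brightly they report, so percentiles are compared for the same gene and not between genes. The study's methods describe the dispase step for skin and not for ganglia, and its part in these levels was not tested. Fos stood at the 95.6th percentile on average in naive control epidermis, at the 59.1st after CFA and at the 38.1st in control DRG. Fosb went from 94.3 to 57.8, with 37.7 in DRG, and Atf3 from 91.7 to 62.9, with 54.0 in DRG. Batf3 and Jund lay closest between naive epidermis and DRG. Jund was at 90.3 in naive epidermis, 80.1 after CFA and 77.9 in DRG. Batf3 was at 48.2 and 36.2, and it was the 1 gene whose percentile was higher after CFA, at 57.3.

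**Figure D4:**
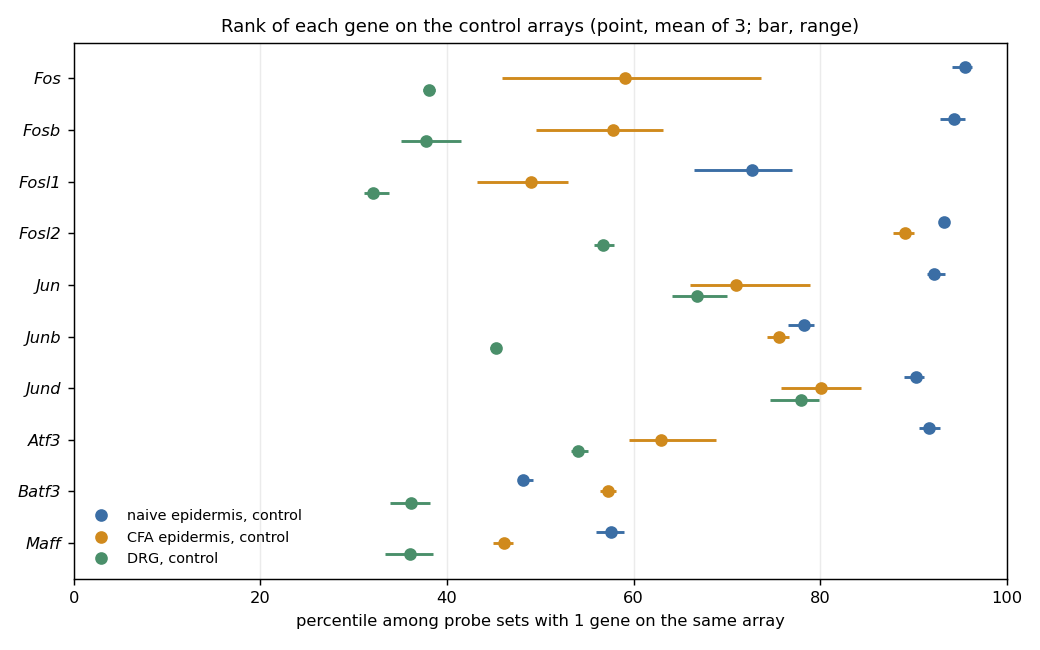
Percentile of each gene among all probe sets with 1 gene on the same array (x axis) in control mice, for naive epidermis (blue), CFA epidermis (orange) and DRG (green), with points for the mean of 3 arrays and bars for their range. Each row is read along itself. All genes rank higher in naive epidermis than in DRG and Fos and Fosb drop the furthest after CFA.

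Over the 12 epidermal arrays, the genes that fell with CFA went together, as groups this far apart must make them, so the correlation was also taken after each group's mean had been subtracted. Both are descriptions over arrays that share 4 groups. Fosb and Atf3 were the closest pair over all values (r = 0.98) and stayed close within groups (r = 0.79). Jun and Atf3 had r = 0.87 and, within groups, 0.77, and Fos and Fosl2 0.93 and 0.69. For Fos and Fosb, 0.94 became 0.42 within groups. Batf3 ran opposite to all the others, from -0.93 with Fosl2 to -0.75 with Maff, and within groups it was most negative with Atf3 (-0.74). Maff, close to Fosb over all values (0.91), had -0.15 with it within groups.

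**Figure D5:**
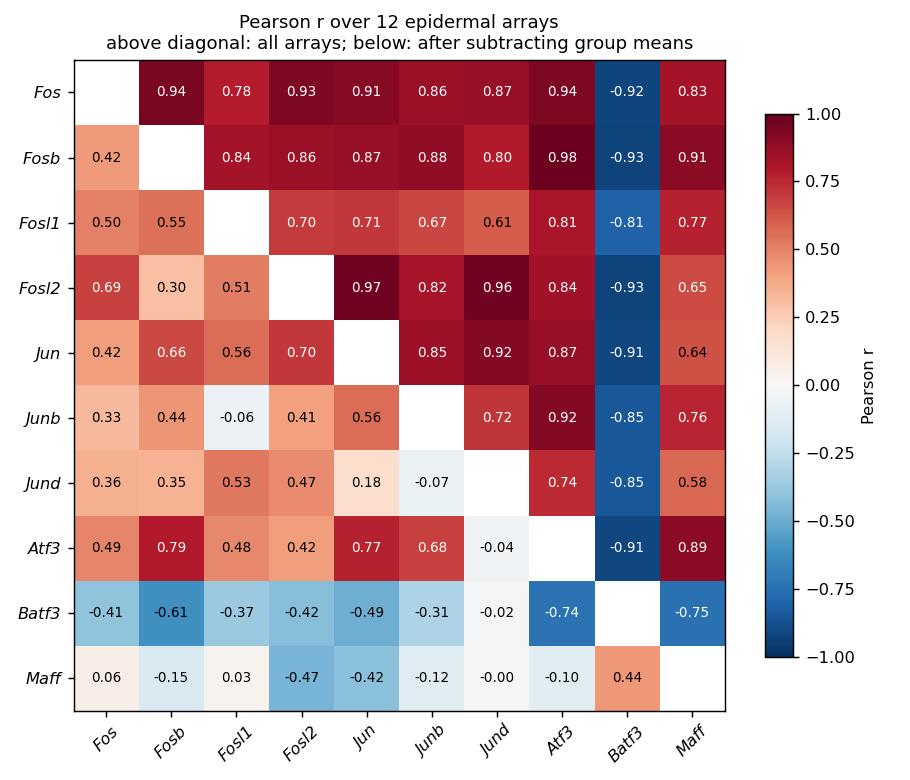
Pearson r between each pair of genes over the 12 epidermal arrays, above the diagonal with all values and below it after subtracting each group's mean, coloured from blue (-1) to red (1). Above the diagonal all pairs are positive except those with Batf3. Below it the pairs Fosb and Atf3 (0.79) and Jun and Atf3 (0.77) stay high, whereas the row of Maff is near 0 or negative except with Batf3 (0.44).

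Outside the family, likeness was sought among 13968 single-gene probe sets above background on all 12 epidermal arrays. The patterns most like Fos were those of Ccn1 (r = 0.98, within groups 0.83), a secreted matrix protein gene, Pfdn1 (0.98, 0.88), a chaperone subunit, and Pnpla8 (0.98, 0.77), a phospholipase. Those most like Jun were Manbal (0.99, 0.89), Ubald1 (0.98, 0.89) and Dusp1 (0.97, 0.79), a MAP kinase phosphatase. For Atf3 they were Nfkbia (0.96, 0.73), the inhibitor of NF-kB, Klf6 (0.96, 0.83) and Slc25a25 (0.96, 0.84). For Fosl1 they were Smg8 (0.95, 0.84), Rbmx2 (0.92, 0.73) and Nr4a1 (0.90, 0.59), an orphan nuclear receptor induced like Fos.

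Upstream of AP-1, genes on the lists of kinases and promoter-bound factors were called in both directions with CFA. Of 26 measured genes of the MAP kinase pathway, 9 were lower and 4 higher in controls, and 10 and 4 in mutants, to be read against the 14.8% and 13.1% of all probe sets called lower. The lower ones included Map2k3, an activator of p38 (-1.31 in controls, adjusted p = 1.385e-05, and -1.30 in mutants, adjusted p = 0.0001217), and Mapk13, the p38 delta kinase of keratinocytes (-1.04, adjusted p = 2.541e-05, and -1.30, adjusted p = 2.039e-05). Map3k8 (TPL2) changed by -0.58 in controls (adjusted p = 0.00632) and by -1.52 in mutants (adjusted p = 0.0004581), and the interaction was not called (-0.94 ± 0.23, adjusted p = 0.25). Of 16 SRF and CREB factors 2 were lower and 1 higher in controls, and 2 lower and 2 higher in mutants. That is no more than the 26.3% and 26.0% of all probe sets called in either direction. Mef2d was at -0.62 (adjusted p = 0.0005994) and -0.47 (adjusted p = 0.003964) and the coactivator Ep300 at 0.35 (adjusted p = 0.0139) and 0.41 (adjusted p = 0.009376). List medians were -0.17 and -0.06 for the kinases and -0.01 and 0.09 for the factors.

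Genes that are switched on together with Fos fell with it. Of 37 other immediate-early genes 28 were lower and 1 higher in controls, and 26 lower and 1 higher in mutants, with list medians of -1.09 and -0.88. Over all probe sets, 14.8% and 13.1% were called lower. Ptgs2, the inducible cyclooxygenase, fell by 4.40 in controls, where 2 of 3 CFA arrays were above background (adjusted p = 9.106e-07), and fell by 2.11 in mutants (adjusted p = 0.007418). Plk3, a stress kinase, changed by -2.60 in controls (adjusted p = 4.476e-07) and by -2.97 in mutants (adjusted p = 5.203e-06). Of 12 DUSP phosphatases, which switch MAP kinases off, 9 were lower and 1 higher in controls, and 7 and 1 in mutants. These too are to be read against 14.8% and 13.1% of all probe sets called lower. Dusp1 fell by 3.35 in controls (adjusted p = 1.307e-05) and fell by 2.38 in mutants (adjusted p = 0.0001015). In the comparisons of genotypes in naive epidermis, CFA epidermis and DRG, in the interaction and in the averaged difference, only Nr4a1 of the 7 lists was called. It was 4.51-fold lower in naive mutants (adjusted p = 0.02524) and 2.02-fold lower on average over both conditions (adjusted p = 0.003089), and its fall with CFA was smaller in mutants by 2.31 on the log2 scale (adjusted p = 0.007456).

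Relatives outside the family, such as the ATF, CREB, CEBP and NRF genes, were called in both directions. Of 32 other bZIP genes measured, 6 were lower and 6 higher in controls and 5 and 5 in mutants, with medians of 0.0045 and 0.02. Over all probe sets, 26.3% and 26.0% were called in either direction. Nfe2l3 changed by -1.12 in controls (adjusted p = 2.725e-05) and by -1.08 in mutants (adjusted p = 4.671e-05), and Atf4, the mediator of the integrated stress response, by -0.61 in controls (adjusted p = 0.001169) and by -0.31 in mutants (adjusted p = 0.1027). Nfe2l2 (NRF2), the antioxidant regulator, rose by 0.42 in controls (adjusted p = 0.01718) and by 0.56 in mutants (adjusted p = 0.003868).

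Among 38 measured genes known as AP-1 targets in skin, 17 were lower and 4 higher in controls, and 16 lower and 5 higher in mutants. Their medians were -0.06 and -0.0033, and 14.8% and 13.1% of all probe sets were called lower. Ereg, an EGF receptor ligand, fell 23.0-fold (adjusted p = 5.832e-07) and 29.0-fold (adjusted p = 5.102e-08). Il1a was not above background on any CFA array and fell at least 8.40-fold in controls (adjusted p = 5.832e-07) and at least 9.30-fold in mutants (adjusted p = 5.092e-07). The cornified envelope gene Sprr1a fell 7.19-fold in controls (adjusted p = 1.731e-06) and 5.96-fold in mutants (adjusted p = 7.542e-06). Sprr2d, of the same kind, fell 2.48-fold in controls (adjusted p = 0.03947) and 9.62-fold in mutants (adjusted p = 7.838e-05), and its interaction was not called (-1.95 ± 0.56, adjusted p = 0.3547). Of 28 genes that rise in injured sensory neurons, some of which stand in the skin list too, 0 were called in DRG by limma. Sprr1a was 0.41 ± 0.13 higher there in mutants (adjusted p = 0.5847) and Adcyap1 0.32 lower (-0.32 ± 0.08, adjusted p = 0.3765). No gene of any of the 7 lists was called in DRG.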

How the data were processed

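Gene expression was measured on 18 Affymetrix arrays, 3 for each of 6 groups, which were assigned from the sample labels. The authors deposited log2 signals per probe set after RMA, and Partek is named in the submitters' processing notes without a version. RMA brings arrays of a tissue to a common distribution, so a shift shared by most genes would be lost. Their own test was an ANOVA in Partek Genomics Suite 3, with a 2-fold threshold and a P under 0.05 corrected for the false discovery rate. For naive epidermis the paper states that this correction was left out. The deposited log2 values were used without transformation.

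Of 35556 probe sets, 23410 carry a gene in the platform table and were tested, 21789 of them a single gene, and 12146 carry none there. The 10 genes and the 7 lists of related genes were chosen with earlier results of these data known. From each list up to 3 genes per comparison are named, ranked by size of change among called genes and by p where none was called, and not all of them are printed. Genes resembling Fos, Jun, Fosl1 and Atf3 are the 3 with the highest Pearson r for each. Ptgs2 and Nr4a1 are named by rule.

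Comparisons were fitted by moderated linear models (limma 3.58.1, R 4.3.3; lmFit, eBayes), two-sided, on the arrays of the groups compared, with Benjamini-Hochberg adjustment over 23410 probe sets. The interaction and the averaged genotype difference used all 12 epidermal arrays. "Fold" is 2 to the power of the log2 difference. Where a gene lay below background on all arrays of a group, its fold is a lower bound against the background of those arrays. The number of arrays limits the precision. The fits were tested on simulated data. Alternatives were other thresholds, quantile normalization of the deposited values, centring on medians, a filter on dim probe sets, no filter on annotation, trend and robust moderation, an ordinary ANOVA (a fit without moderation), 1 fit of all epidermal groups, replicate number as a block and leaving out arrays in turn. Motif matches were counted in Python 3.11.15 with pandas 2.3.3, and figures drawn with matplotlib 3.10.9.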

Additional observations from a re-analysis of the deposited data

How the results depend on the processing

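In the comparisons of CFA with naive epidermis, within either genotype, no member of the family changed direction under any setting. With the 2-fold threshold, with or without adjustment, 6 members were called in controls and 4 in mutants. That is in place of 10 and 8, which follows from the stricter rule. Over all 23410 probe sets, this threshold called 1105 with adjustment and 1112 without in controls, and 804 and 814 in mutants. With ordinary ANOVA 5 members were called in mutants, against 3859 of all probe sets. Leaving out 1 array at a time gave 9 to 10 calls in controls and 7 to 8 in mutants. In naive epidermis the 0 calls between genotypes became 2 with the 2-fold threshold and an unadjusted p (Fosb and Fosl1), against 19 of all probe sets. They became 1 with trend and robust moderation (Maff) and 0 to 1 when 1 array was left out. Over all probe sets the 7 calls became 79 with trend and robust moderation. In CFA epidermis, 0 became 1 with all 4 groups in 1 fit (Maff), where the 42 calls over all probe sets became 246; the cause was not tested. The interaction gave 1 call with the 2-fold threshold and an unadjusted p (Fosl1), against 133 of all probe sets. The averaged genotype difference gave 0 calls with the 2-fold threshold, with or without adjustment, and 1 to 2 when 1 array was left out. Over all probe sets, the counts of calls under an adjusted p moved widely with other fits and with arrays left out: 0 to 79 in naive epidermis in place of 7, 0 to 289 in CFA epidermis in place of 42, 1 to 203 in DRG in place of 17, 0 to 87 for the interaction in place of 6 and 18 to 277 for the averaged difference in place of 87, against 3895 to 7537 for CFA in controls in place of 6150 and 3859 to 6521 in mutants in place of 6096. Single values whose sign changed were those of genes called under neither setting, 17 in all.

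Replicate numbers are shared between groups in the labels. The deviations of arrays with the same number had r from -0.24 to 0.23, with 3 of 21 pairs over 0.1. Those 3 pairs were replicate 3 in CFA epidermis (0.23) and replicates 1 and 3 in DRG (0.18 and 0.15). Arrays of unlike number were not compared, so these values cannot show whether the numbers stand for anything shared. With the replicate block, 9 members were called after CFA in controls and 7 in mutants, with Junb (adjusted p = 0.06072) and Batf3 (adjusted p = 0.06109) lost. It gave 0 calls in naive epidermis, CFA epidermis, DRG and the interaction, and 1 in the averaged difference (Maff). Over all probe sets the block gave 5053 calls after CFA in controls in place of 6150, and 5231 in mutants in place of 6096. It gave 289 calls between genotypes in CFA epidermis in place of 42 and 51 in DRG in place of 17. For the averaged difference it gave 88 in place of 87.

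Signal over background limits the DRG values of Fos, Fosb, Fosl1, Batf3 and Maff. It also limits the CFA values of Maff and Fosl1 and, in mutants, of Fosb. Batf3 was similarly close to background in naive epidermis, on average 1.07 above it in controls and 1.23 in mutants. The lowest CFA arrays of Fos stood 0.87 above background in controls and 0.89 in mutants, and that of Atf3 0.84 in mutants.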
